A study of Arabidopsis thaliana with 15 samples.

Results

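The plastid of a plant cell carries a small circular genome of its own, and 69 of its protein genes could be followed here. A gene was taken when an array probe set was annotated to that gene alone and its locus tag lay on the chloroplast chromosome of Arabidopsis thaliana. They are 69 of the 13356 genes with such a probe set, and 69 of the 84 chloroplast protein genes in the reference gene table. Each had exactly 1 probe set. By name they fall into 5 genes of photosystem I, 15 of photosystem II, 6 of the cytochrome b6f complex, 6 of the chloroplast ATP synthase, 10 of the NADH dehydrogenase-like (NDH) complex, the Rubisco large subunit gene rbcL, 15 ribosomal protein genes, 4 RNA polymerase genes and 7 others.

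RNA came from rosette leaves of Columbia plants aged 4 weeks, kept on soil with 8 h of light and 16 h of darkness a day, and 3 biological replicates of each of 5 genotypes gave 15 Affymetrix arrays. The genotypes were wild type; nhx5-2, a single knockout of NHX5 in a GABI T-DNA line; nhx6-2, a single knockout of NHX6 in a SALK T-DNA line; the double knockout nhx5-2/nhx6-2 that combines these alleles; and the double knockout nhx5-1/nhx6-1, with a WiscDsLox insertion in NHX5 and another SALK insertion in NHX6. NHX5 and NHX6 are antiporters of endosomal membranes that exchange potassium or sodium ions for protons. Each allele is 1 insertion line, the labels do not say how many plants went into a sample, and neither NHX gene has a listed probe set, so the knockouts were not checked at the transcript level. In whole leaf, fewer cells of a type and less RNA per cell cannot be told apart.

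Chloroplast genes encode core subunits of the photosynthetic complexes and part of the machinery that expresses them, while the nucleus supplies the remaining subunits. They are transcribed by a bacterial-type polymerase, whose core the plastid itself encodes, and by a phage-type polymerase from the nucleus. Most lie in clusters read into long shared RNAs that are then cut and trimmed, so a probe set can read several RNA species. Mature plastid mRNAs largely lack the stable poly(A) tail from which the standard labelling of these arrays starts, so a value need not follow the amount of plastid RNA. This was not tested.

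Values are the deposited scores, which behave like a log scale and average about 0 over each array, and tests and differences stay within 1 probe set, since levels of different probe sets depend on their probes as well as on RNA. As a yardstick, the bacterial spike-in controls gained 0.681 units for each doubling of the nominal amount, or 2.77-fold per unit, which was assumed to hold for the members as well. Of the 69 genes, 57 lay above the highest of 27 no-target control probe sets on all 15 arrays, 11 on some arrays, and rpoB, a polymerase subunit gene, on none. The no-target controls had medians between -0.81 and -0.57, and 37 members had a mean value above 1. The leaf gene RCA, which encodes Rubisco activase, had a mean of 5.30, and the root hair gene EXPA7 a mean of -0.56, at the level of the controls without a target. The other 6 mesophyll markers and 3 of 4 root markers on the lists were not analysed here, nor were the 5 flower markers.

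The 69 genes moved up and down together from array to array, and wild type replicate 2 was the lowest array. It held the lowest of the 3 wild type values for 69 of 69 members, against 48.6% of all probe sets, and the lowest of all 15 values for 55 members, against 5.31% of all probe sets. Relative to the mean of the other two wild type arrays, the members differed by a median of -0.77 units, about 2.18-fold on the spike-in yardstick, with a range from -1.91 to -0.08. The median of all probe sets on that array was -0.02 by the same measure, and that of 16 mitochondrion-encoded genes was -0.08. Since the scores average about 0 over each array, a shift of the table as a whole could not show. The median of all probe sets was thus held near 0 in advance.

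To place each array, the deviation of each gene from its own mean over 15 arrays was taken, and the median over the 69 genes was called the array's position. In wild type the positions were 0.06, -0.64 and 0.23 for replicates 1, 2 and 3. In nhx5-2 they were -0.05, 0.14 and -0.10, and in nhx6-2 they were 0.28, 0.07 and -0.08. The double knockout nhx5-2/nhx6-2 had -0.16, 0.02 and -0.43, and nhx5-1/nhx6-1 had 0.34, -0.07 and 0.29. Positions of different genotypes overlapped throughout, and the pooled SD of the position within genotypes was 0.27. For all probe sets together, the median deviation stayed within -0.03 and 0.00, which the centring of the scores on each array largely fixed in advance.

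**Figure D1:**
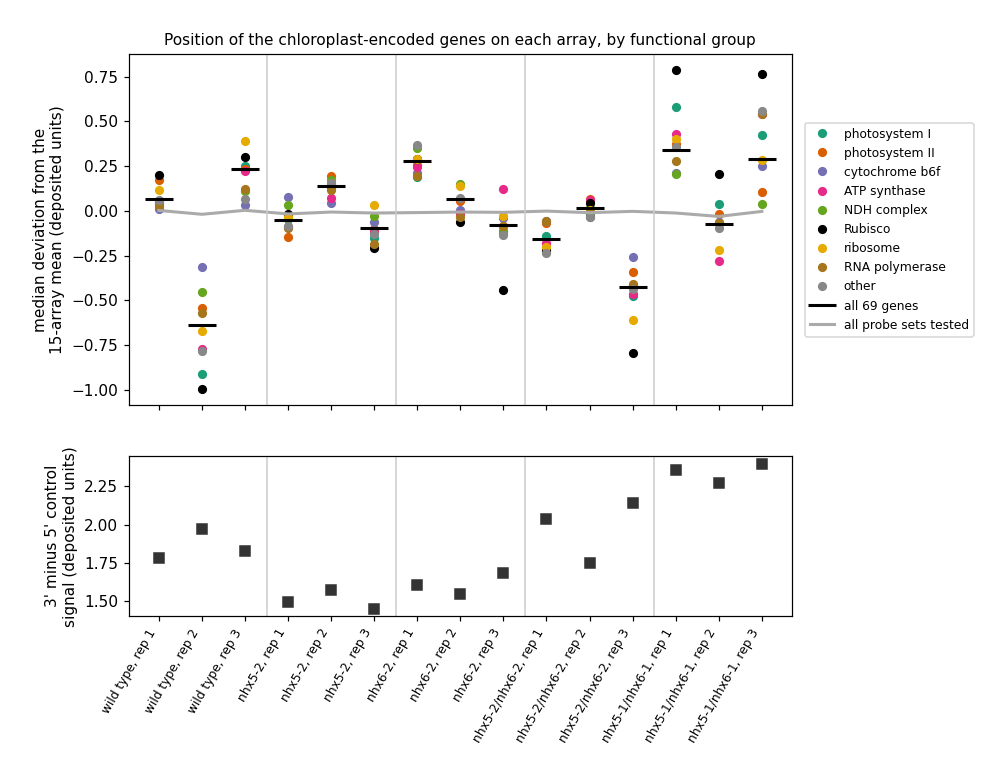
Upper panel: median deviation of each functional group of chloroplast-encoded genes from the gene's mean over 15 arrays (deposited units, y axis) on each array (x axis), with all 69 genes as black dashes and all probe sets as a grey line. Lower panel: 3′ minus 5′ control signal of actin and GAPDH. Wild type replicate 2 is lowest in every group, while the grey line stays near 0.

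The shared movement was large next to the spread of single genes. The array term that all 69 genes had in common made up 59.7% of their sum of squares within genotypes, and 47.8% without wild type replicate 2. Over all probe sets tested the share was 0.000322%. That value was fixed near 0 in advance, because the scores average about 0 over each array, so it is no yardstick for the members. It was 77.9% for the 6 ATP synthase genes, 73.4% for the 7 other genes, 71.4% for the 4 polymerase genes, 66.7% for photosystem II, 63.5% for the ribosomal protein genes, 58.1% for the NDH complex, 57.7% for photosystem I and 45.4% for cytochrome b6f. The 16 mitochondrion-encoded genes shared 21.1%. The nuclear photosystem and antenna list shared 77.6%, so a large common term was not particular to the plastid genome. Of its 44 genes, 9 had a probe set annotated to that gene alone, and only these were used. That list also holds RCA and ATPC1, an ATP synthase subunit gene. A small list raises this share, since each gene then weighs more in its own array term.

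The spread of a member within a genotype had a median SD of 0.335 units, against 0.0857 for all probe sets. Among probe sets with a mean above 1, it was 0.437 for the 37 members and 0.140 for all 2523. The widest members were rpl36, a large ribosomal subunit protein gene, at 0.67, psbC, which encodes the photosystem II inner antenna protein CP43, at 0.65, petB, which encodes cytochrome b6, at 0.59, psaJ, a small photosystem I subunit gene, at 0.59, and rpl22 at 0.58. The narrowest were petD at 0.063, petN at 0.078, rpoB at 0.11, psaC at 0.12 and rpl20 at 0.14, all with means below 0, where the signal is close to the control probe sets without a target. For rpl36, wild type replicates 1, 2 and 3 read 2.02, 0.21 and 2.23, and nhx5-2/nhx6-2 read 1.17, 1.73 and 0.28. For psbC, the wild type values were 2.31, 0.50 and 2.35. In both genes the low wild type array lay below every array of both single knockouts.

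**Figure D2:**
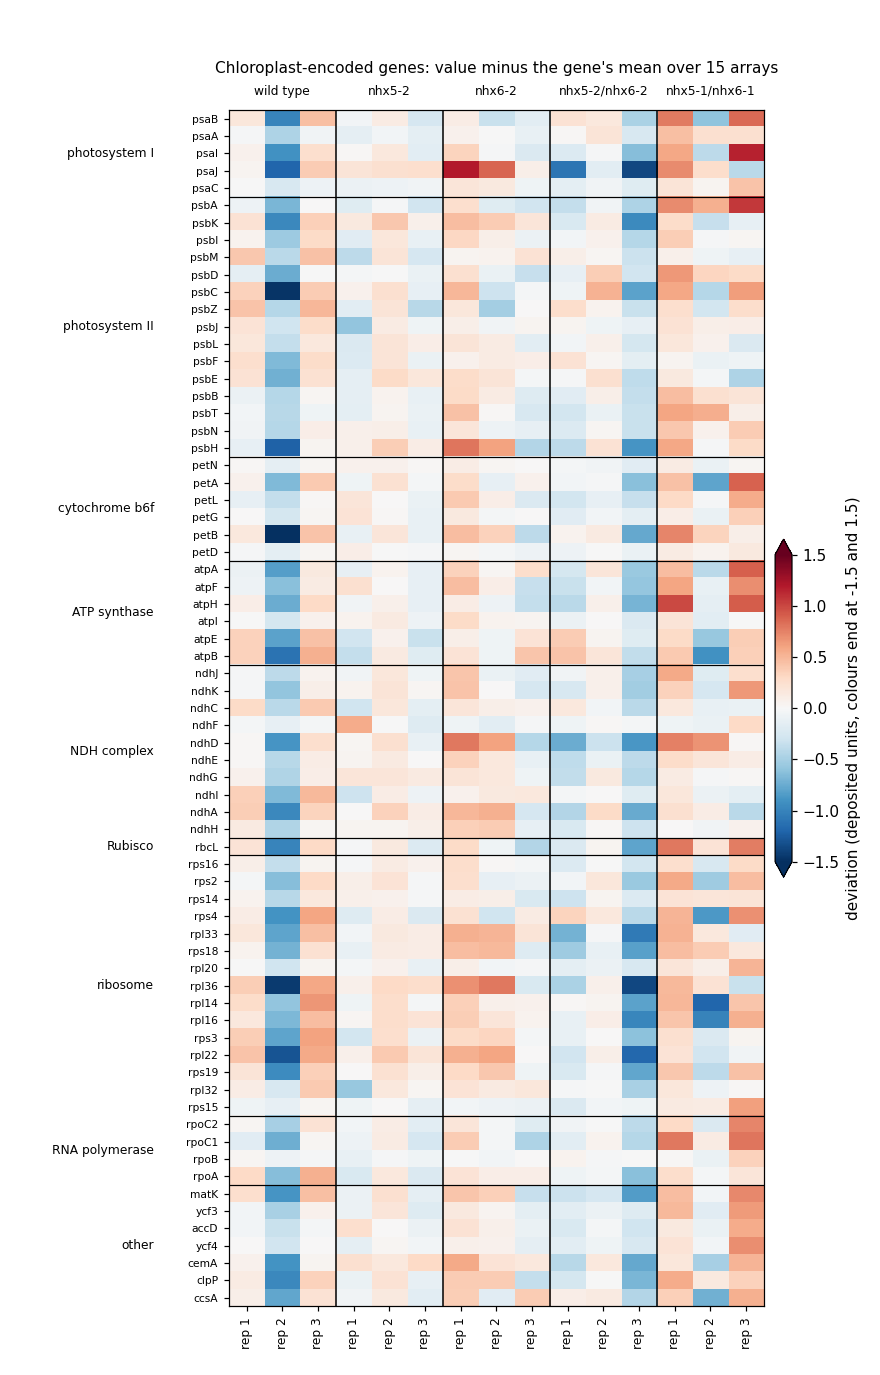
Deviation of each of the 69 chloroplast-encoded genes (rows, by functional group) from its own mean over 15 arrays (columns, by genotype and replicate), in deposited units. Blue columns at wild type replicate 2 and nhx5-2/nhx6-2 replicate 3 run through nearly all groups, and nhx5-1/nhx6-1 replicate 2 is blue in some groups only.

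In each of 3 further genotypes an array stood low, in different ways. The array nhx5-2/nhx6-2 replicate 3 held the lowest of its 3 values for 64 members, against 32.6% of all probe sets, with a median of -0.44 against the mean of the other two arrays. The array nhx6-2 replicate 3 was lowest for 49 members, against 40.4% of all probe sets, with a median of -0.24. The array nhx5-1/nhx6-1 replicate 2 was lowest for 54 members, against 36.9% of all probe sets, with a median of -0.33, and here the groups went apart. The 6 ATP synthase genes had a median of -0.99, against -0.14 for the 15 photosystem II genes and -0.09 for the 10 NDH genes. The ribosomal protein gene rpl14 read 2.21, 0.52 and 2.13 on nhx5-1/nhx6-1 replicates 1, 2 and 3, and its neighbour rpl16 read 1.56, 0.14 and 1.68. The ATP synthase beta subunit gene atpB read 4.91, 3.61 and 4.87. Over the same arrays psbM, a small photosystem II subunit gene, read 4.23, 4.08 and 4.03, so the low array did not lower all bright members. These arrays, and rpl14, rpl16 and atpB, were singled out after their values were seen and are described with no test.

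**Figure D3:**
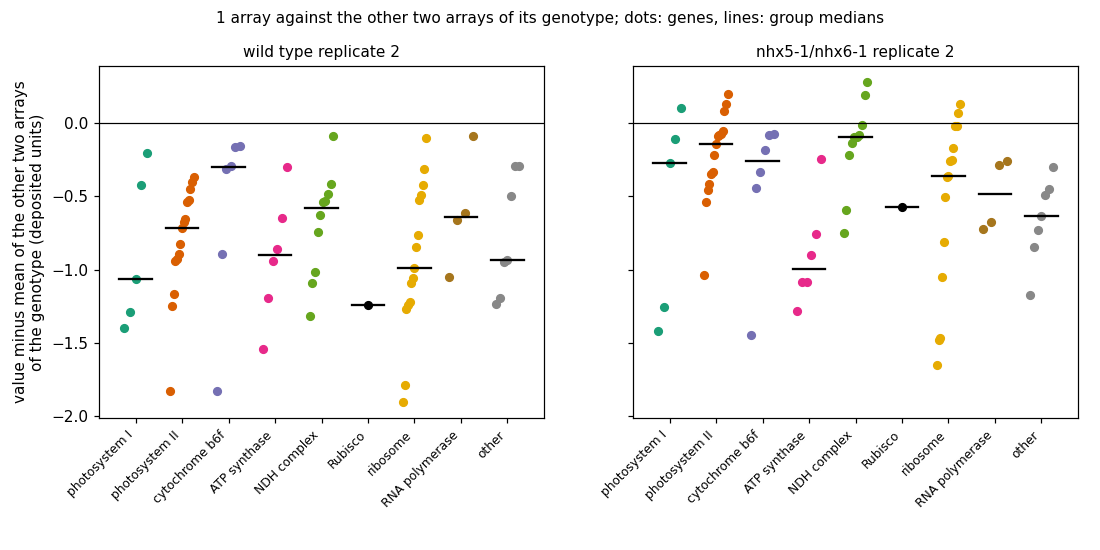
Value of each chloroplast-encoded gene on 1 array minus the mean of the other two arrays of the genotype (deposited units, y axis), by functional group (x axis), with lines at the group medians. On wild type replicate 2 all 69 genes lie below 0. On nhx5-1/nhx6-1 replicate 2 the ATP synthase median is -0.99 while the NDH median is -0.09.

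RNA quality controls differed between arrays and genotypes. The 3′ minus 5′ signal of the actin and GAPDH controls, which is larger when labelled RNA is shorter, was 1.79, 1.97 and 1.83 in wild type, 1.49, 1.57 and 1.45 in nhx5-2, and 1.61, 1.55 and 1.69 in nhx6-2. It was 2.04, 1.75 and 2.14 in nhx5-2/nhx6-2 and 2.36, 2.27 and 2.40 in nhx5-1/nhx6-1. Within wild type and within nhx5-2/nhx6-2, the array with the highest signal was the one with the lowest chloroplast position, and in nhx6-2 replicate 3 had both as well. In nhx5-2 the array with the highest signal had the highest position, and in nhx5-1/nhx6-1 the array with the lowest signal had the lowest position. In nhx5-1/nhx6-1 the 3 signals were the highest of all 15 while 2 of its 3 positions were also the highest, so neither within nor across genotypes did the measures run 1 way throughout. The array nhx5-1/nhx6-1 replicate 3 also stood apart in scale, with an SD over probe sets of 0.76 and a no-target median of -0.57, the highest of 15, and nhx5-2 replicate 1 had an SD of 0.80, while the other 13 arrays had SDs from 0.88 to 0.89. The part of RNA quality in the differences below was not tested. In nhx5-2, nhx6-2 and nhx5-1/nhx6-1 the signal did not overlap that of wild type, so there it cannot be told apart from genotype. The fit with this signal as a covariate, given below, cannot separate them either.

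The comparisons ask whether losing either antiporter or both changed the chloroplast-encoded transcripts. Differences were tested with limma over all 22746 probe sets, with Benjamini-Hochberg adjustment and a threshold of 0.05. In nhx5-2 no member was called, against 0.0659% of all probe sets, and in nhx6-2 none was called, against 0.29%. In nhx5-2/nhx6-2 none was called either, against 9.81% of all probe sets. At an unadjusted p under 0.05 the counts were 0 in nhx5-2, 1 in nhx6-2 and 0 in nhx5-2/nhx6-2, against 5.96%, 6.73% and 20.2% of all probe sets. The median differences from wild type were 0.12, 0.18 and -0.07 units, with 55, 64 and 18 of 69 members above 0, while the medians of all probe sets rounded to 0. The median standard error of a member was 0.24, against 0.068 for all probe sets, and a call needed several standard errors. In nhx5-1/nhx6-1 against wild type the smallest ratio of a called difference to its standard error was 3.25, which at the members' median is 0.774 units, and in nhx5-2/nhx6-2 it was 3.36, or 0.799 units. In nhx5-2 and nhx6-2, with few calls over the whole table, the same measure gave 1.46 and 1.25 units. Members with a larger standard error needed more than this, so smaller differences there could not be detected. Members with a smaller standard error could pass with less, as psaC did at 0.33 units in nhx5-1/nhx6-1.

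With wild type replicate 2 left out, these medians became -0.11, -0.05 and -0.31, and in nhx5-2/nhx6-2 4 of 69 members passed as lower, a share near the 4.54% of all probe sets. They were rpl33, rps3, rpoA, which encodes the alpha subunit of the plastid polymerase, and ndhI, an iron-sulfur subunit gene of the NDH complex. For rpoA, nhx5-2/nhx6-2 read 2.82, 2.84 and 2.25, and wild type read 3.17, 2.23 and 3.41, so the groups overlapped through that 1 wild type array.

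In nhx5-1/nhx6-1, 8 of 69 members rose and none fell, against 5.13% of all probe sets called higher and 6.9% called lower. The 8 were psbA, psbD and psbT of photosystem II, psaA and psaC of photosystem I, rpoC1 of the polymerase, and the ribosomal protein genes rpl20 and rps15. The median difference from wild type over the 69 genes was 0.28 units, with 60 above 0, and 18 had an unadjusted p under 0.05, all higher, against 11.3% of all probe sets higher at that threshold. No gene of the cytochrome b6f complex, the ATP synthase or the NDH complex passed, nor did rbcL, and at an unadjusted p under 0.05 these held 2, 2, 0 and 1 genes. With the 3′ minus 5′ control signal in the model no member was called, against 0.0264% of all probe sets called higher and 0.0791% lower. The median was then 0.75, all 69 members were above 0 and 33 had an unadjusted p under 0.05. With only both compared genotypes in the fit psbA alone was called, against 1.68% of all probe sets called higher. With wild type replicate 2 left out, the median was 0.03, 38 members were above 0, and the calls were psbA higher and ndhI lower, against 4.72% and 5.44% of all probe sets. Leaving out nhx5-1/nhx6-1 replicate 1 left 2 calls (4.43% of all probe sets called higher), and replicate 3 left 4 (7.31%). Leaving out replicate 2, the low array, gave 15 (3.82%). Without wild type replicate 1 there were 3 (2.33%), and without wild type replicate 3 there were 5 (2.35%). Without nhx5-2/nhx6-2 replicate 1, which enters through the shared spread, there were 5 (4.36%).

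**Figure D4:**
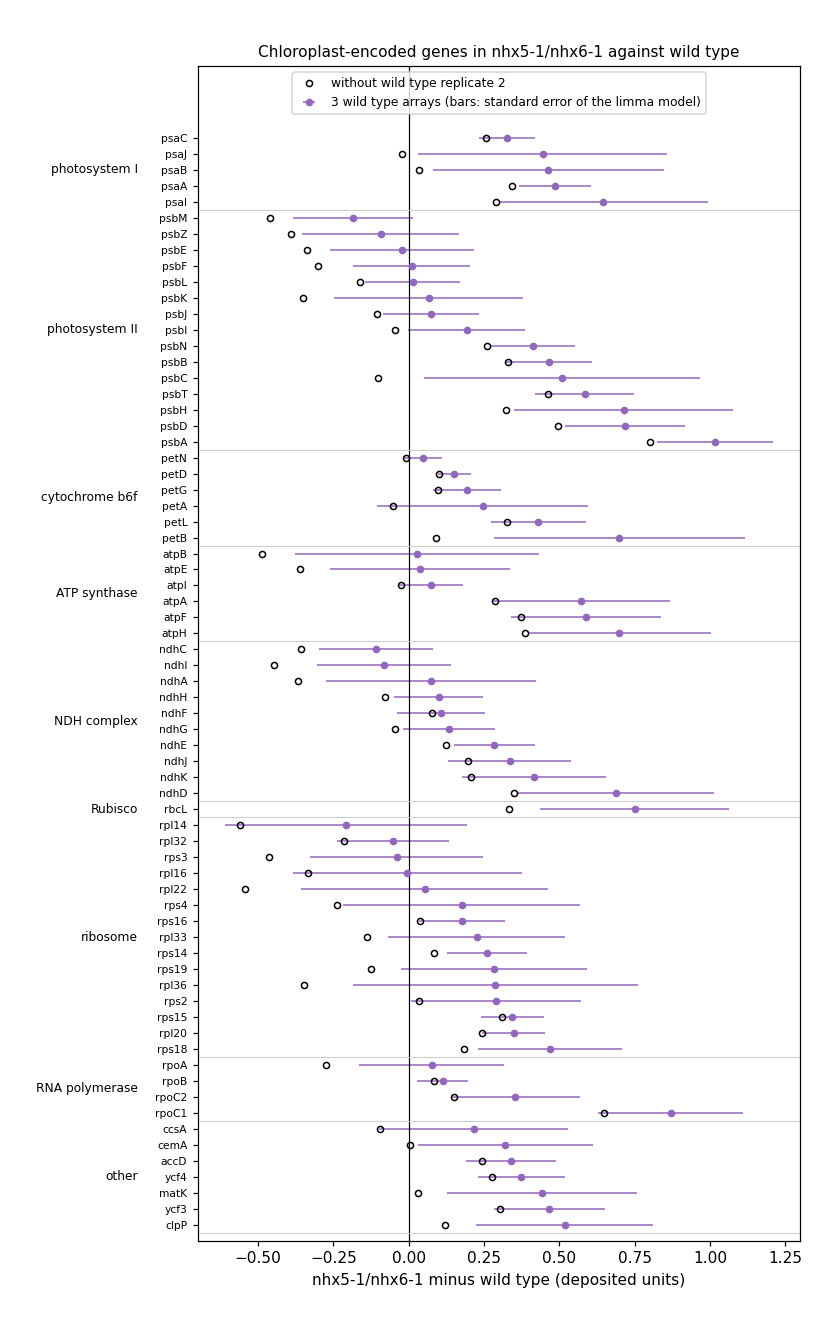
Difference of nhx5-1/nhx6-1 from wild type for each of the 69 chloroplast-encoded genes, by functional group (deposited units, x axis). Filled points use all 3 wild type arrays, with bars of 1 standard error of the limma model, and open circles leave out wild type replicate 2. The median moves from 0.28 to 0.03, and psbA stays highest under both.

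Among the photosystem II genes, psbA rose most. It encodes the reaction centre protein D1, which is damaged by light and replaced throughout the day. In wild type it read 1.36, 0.75 and 1.44, in nhx5-2 1.25, 1.41 and 1.14, in nhx6-2 1.69, 1.25 and 1.14, and in nhx5-2/nhx6-2 1.07, 1.38 and 0.96. In nhx5-1/nhx6-1 it read 2.14, 1.97 and 2.49. All 3 arrays of nhx5-1/nhx6-1 lay above the other 12. The means were 1.18 ± 0.38 (SD, n = 3) in wild type and 2.2 ± 0.26 (SD, n = 3) in nhx5-1/nhx6-1, a difference of 1.02 ± 0.19 (standard error), or about 2.82-fold on the spike-in yardstick, with a limma adjusted p of 0.00384. The gene was called with each of the 15 arrays left out in turn. It was not called when all arrays were shifted by the chloroplast position, or when the 3′ minus 5′ signal entered as covariate and the difference was 1.48 with a limma adjusted p of 0.143. Over all alternatives run, the limma adjusted p ran from 0.000228 to 0.143.

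The psbA values in nhx5-1/nhx6-1 were also high relative to the array position, though psbA was not the highest member on any of these arrays. By that measure atpH stood at 0.64 on replicate 1, ndhD at 0.74 on replicate 2 and psaI at 0.86 on replicate 3. Relative to the array position, psbA lay at 0.37, 0.61 and 0.76 on the 3 arrays of nhx5-1/nhx6-1, and between -0.25 and -0.03 on the other 12. When the members were shifted by their own array position and then fitted again, an alternative chosen after seeing the data, the difference of psbA from wild type was 0.72 ± 0.09, with a limma adjusted p of 0.000228. In that fit rpoC1, psbD and rbcL were also higher, and psbM and ndhC, an NDH membrane subunit gene, were lower. With psbA, 4 members were called higher, a share of the members near the 5.11% of all probe sets. The 2 called lower were a share below the 6.93% of all probe sets. The shift takes the members' own median off each array, so lower values for some members were partly fixed in advance.

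The other photosystem II genes followed in part. The gene psbD, which encodes the reaction centre protein D2, read 0.26, -0.35 and 0.39 in wild type and 1.04, 0.72 and 0.69 in nhx5-1/nhx6-1, with no overlap. It rose by 0.72 ± 0.20 units with a limma adjusted p of 0.0325. In nhx5-2/nhx6-2 it read 0.28, 0.77 and 0.11, across the range between those groups, and the 6 arrays of the single knockouts ran from 0.06 to 0.63. The small subunit gene psbT was dim, above the highest control without a target on 10 of 15 arrays, and read -0.37, -0.74 and -0.38 in wild type and 0.27, 0.22 and -0.23 in nhx5-1/nhx6-1. Its difference was 0.58 ± 0.16, with a limma adjusted p of 0.0338. Of the 15 genes, 12 had a difference above 0 and the median was 0.19, which became -0.10 with 6 above 0 without wild type replicate 2. The probe set of psbM had a mean of 4.15 and a difference of -0.19 ± 0.20.

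Among the photosystem I genes, all 5 had a difference above 0 in nhx5-1/nhx6-1, with a median of 0.46, and 4 of 5 with a median of 0.26 without wild type replicate 2. The gene psaA, which encodes a large reaction centre protein, read -0.06, -0.50 and -0.09 in wild type and 0.40, 0.19 and 0.20 in nhx5-1/nhx6-1. It rose by 0.49 ± 0.12 with a limma adjusted p of 0.0178, and all 3 values were above the other 12. Its partner psaB, with a mean of 3.52, read 3.69, 2.53 and 3.97 in wild type and 4.3, 2.91 and 4.37 in nhx5-1/nhx6-1, and the difference of 0.46 ± 0.38 did not pass. The gene psaC, which encodes the iron-sulfur subunit that passes electrons to ferredoxin, read -0.47, -0.71 and -0.54 in wild type and -0.28, -0.43 and -0.04 in nhx5-1/nhx6-1. Its difference was 0.33 ± 0.09 with a limma adjusted p of 0.0352, at a level above the highest control without a target on 9 of 15 arrays.

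**Figure D5:**
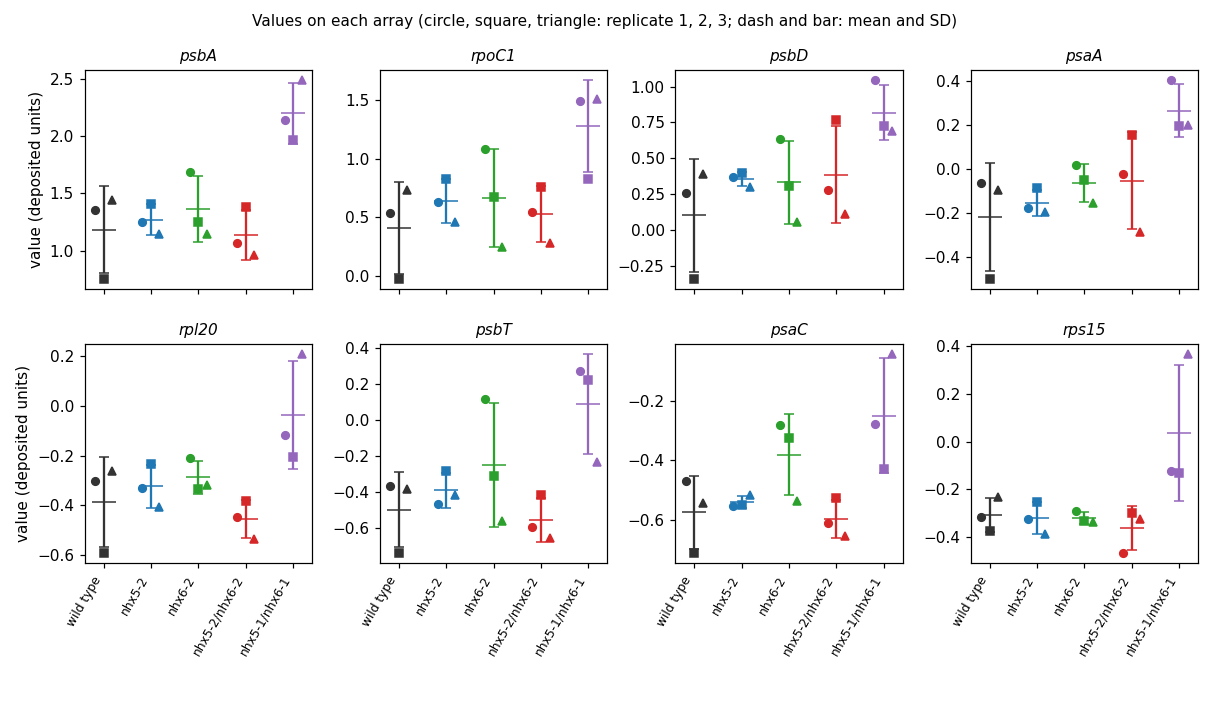
Values of the 8 chloroplast-encoded genes called higher in nhx5-1/nhx6-1 (deposited units, y axis of each panel) for the 5 genotypes (x axis). Circle, square and triangle are replicates 1, 2 and 3, the dash is the mean and the bar the SD of 3 arrays. The wild type square is the lowest of its genotype in all 8 panels.

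In the expression machinery, rpoC1, which encodes the beta′ subunit of the plastid polymerase, read 0.53, -0.03 and 0.73 in wild type and 1.5, 0.83 and 1.51 in nhx5-1/nhx6-1. The groups did not overlap, and the difference was 0.87 ± 0.24 with a limma adjusted p of 0.0317. The gene next to it, rpoC2, read 0.27, -0.25 and 0.46 in wild type and 0.54, 0.03 and 0.97 in nhx5-1/nhx6-1, an overlap, with a difference of 0.35 ± 0.21 that did not pass. The gene rpoB, transcribed in the same cluster, had a mean of -0.62 and never exceeded the controls without a target, and rpoA, with a mean of 2.88, differed by 0.08 ± 0.24. All 4 differences were above 0, and the median of 0.23 became 0.12 without wild type replicate 2.

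Among the 15 ribosomal protein genes, 11 had a difference above 0 in nhx5-1/nhx6-1, with a median of 0.23, and 6 with a median of -0.14 without wild type replicate 2. The gene rpl20 rose by 0.35 ± 0.10 with a limma adjusted p of 0.0431, and rps15 by 0.34 ± 0.10 with a limma adjusted p of 0.0467. Both read close to the controls without a target. In rps15, nhx5-1/nhx6-1 read -0.12, -0.13 and 0.37, and wild type -0.32, -0.38 and -0.23. The high value is that of replicate 3, the array of small SD, and without it the differences fell to 0.18 for rps15, 0.23 for rpl20 and 0.22 for psaC, with limma adjusted p values of 0.0647, 0.129 and 0.107 and no call. The probe sets had means from -0.33 for rps16 to 3.32 for rpl32, and rpl32 differed by -0.05 ± 0.19.

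The electron transfer and ATP-forming complexes had no call in any of the 5 comparisons. Among the 6 cytochrome b6f genes, the differences of nhx5-1/nhx6-1 from wild type were all above 0, with a median of 0.22, and 4 of 6 with a median of 0.09 without wild type replicate 2. They ran up to 0.70 ± 0.42 for petB, which read 3.92, 2.23 and 4.2 in wild type and 4.5, 4.1 and 3.86 in nhx5-1/nhx6-1, and whose difference was 0.09 without that wild type array. The subunit IV gene petD had the lowest mean of the group, -0.48, and was above the highest control on 8 arrays. Among the 6 ATP synthase genes, the differences were also all above 0, with a median of 0.32, and 3 of 6 with a median of 0.13 without wild type replicate 2. The epsilon subunit gene atpE had a mean of 4.73 and read 5.08, 3.93 and 5.17 in wild type and 5.02, 4.16 and 5.10 in nhx5-1/nhx6-1, a difference of 0.04 ± 0.30. The subunit a gene atpI was dim, with a mean of -0.38.

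The NDH complex, which carries electrons back from ferredoxin to plastoquinone in cyclic flow, also had no call. Its 10 genes had a median difference of 0.12 in nhx5-1/nhx6-1, with 8 above 0, and 0.02 with 5 above 0 without wild type replicate 2. The gene ndhG, a membrane subunit, read 0.09, -0.42 and 0.13 in wild type, 0.21, 0.20 and 0.16 in nhx5-2, 0.22, 0.18 and -0.04 in nhx6-2, -0.34, 0.17 and -0.41 in nhx5-2/nhx6-2, and 0.15, 0.01 and 0.04 in nhx5-1/nhx6-1. It did not overlap between nhx5-2 and wild type, and its limma adjusted p there and elsewhere did not pass. The bright member ndhI, with a mean of 4.75, read 5.11, 4.08 and 5.24 in wild type and 4.92, 4.67 and 4.60 in nhx5-1/nhx6-1, so the low wild type array lay below and the other two above. The probe set of ndhF had a mean of -0.68 and exceeded the controls on 1 array.

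The carbon-fixing subunit gene rbcL read 1.70, 0.50 and 1.80 in wild type, 1.49, 1.64 and 1.29 in nhx5-2, 1.79, 1.44 and 1.06 in nhx6-2, 1.28, 1.54 and 0.71 in nhx5-2/nhx6-2, and 2.29, 1.70 and 2.26 in nhx5-1/nhx6-1. Its difference in nhx5-1/nhx6-1 was 0.75 ± 0.31, with a limma adjusted p of 0.153, and 0.33 without wild type replicate 2. The 7 other genes all had differences above 0, with a median of 0.37 that became 0.12 without wild type replicate 2, and none passed. They encode among others an intron maturase (matK), photosystem I assembly factors (ycf3 and ycf4), a protease subunit (clpP) and a subunit of acetyl-CoA carboxylase (accD, with the lowest mean of the group, -0.22). The cytochrome c assembly gene ccsA had the highest, 3.09.

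Compared directly, nhx5-1/nhx6-1 exceeded nhx5-2/nhx6-2 in psbA alone, by 1.06 ± 0.19 with a limma adjusted p of 0.0372, against 0.123% of all probe sets called higher and 0.255% lower. The median difference was 0.38 with 65 of 69 above 0, and 26 members had an unadjusted p under 0.05, all higher, against 5.59% of all probe sets higher at that threshold. The call was lost without any 1 of the nhx5-2/nhx6-2 arrays, of nhx5-1/nhx6-1 replicates 1 and 3, of wild type replicate 1, of nhx5-2 replicates 2 and 3 and of nhx6-2 replicate 2, with 0 calls in each case. Without nhx5-1/nhx6-1 replicate 2 there were 7, against 0.339% of all probe sets called higher. The fit over any difference among the 5 genotypes called psbA alone, with a limma adjusted p of 0.0092 from its F test, against 12.3% of all probe sets, and 17 members had an unadjusted p under 0.05, a share of the 69 near the 24.9% of all probe sets.

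Counting members whose groups did not overlap gave a like picture. In nhx5-2, 3 members lay fully above wild type, namely cemA, psbH and ndhG, against 5.15% of all probe sets, and none below, against 8.47%. In nhx6-2 only cemA did, against 5.9%, and none lay below, against 8.09%. In nhx5-2/nhx6-2 no member lay fully above or below, against 16.4% and 17.6%. In nhx5-1/nhx6-1, 11 lay fully above wild type, or 15.9% of members, against 11.1% of all probe sets, and none below, against 15.1%. Between both double knockouts, 20 members were fully higher in nhx5-1/nhx6-1, or 29.0%, against 7.49%, and none lower, against 9.88%. The wide spread of the members within genotypes bears on all these counts.

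Some neighbours on the chloroplast chromosome had like profiles. The genes psaJ, rpl33 and rps18 lie side by side and were picked after their values were seen. In nhx6-2 psaJ read 3.03, 2.71 and 1.93, rpl33 2.56, 2.55 and 2.23, and rps18 1.90, 1.93 and 1.25. In nhx5-2/nhx6-2 psaJ read 0.74, 1.68 and 0.48, rpl33 1.33, 2.01 and 0.97, and rps18 0.91, 1.33 and 0.63. All 3 genes were lower on each nhx5-2/nhx6-2 array than on nhx6-2 replicates 1 and 2, and none passed against wild type. After removal of the array position, the mean absolute difference between the profiles of adjacent genes with means above 1 had a median of 0.225 over 22 pairs, against 0.267 over all 666 such pairs. It was lowest for rpl14 and rpl16, at 0.106, and for atpE and atpB, at 0.124. Of the 69 genes, 9 had a neighbour as their closest profile, and of the 37 with a mean above 1, 6 did. A gene has at most 2 neighbours among the members, and whether these counts exceed those of unrelated genes was not tested. Closeness among dim genes also reflects their small spread.

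Few of the listed nuclear genes of photosynthesis had a probe set annotated to that gene alone, and only these were measured here. The photosystem and antenna list also holds RCA and ATPC1, which belong to neither. Of the 9 genes measured from this list, 1 passed in each double knockout, LHCB4.3, a minor antenna protein gene. Of all probe sets, 5.54% were called lower in nhx5-2/nhx6-2 and 6.9% in nhx5-1/nhx6-1. It was lower, with a difference of -0.59 units in nhx5-2/nhx6-2 (limma adjusted p of 0.0123) and of -0.89 in nhx5-1/nhx6-1 (limma adjusted p of 0.000958). All 9 had differences below 0 in nhx5-1/nhx6-1, with a median of -0.31 and 3 with an unadjusted p under 0.05. All 9 were also below 0 in nhx5-2, with a median of -0.25 and 2 such genes. At that threshold, 5517 of 22746 probe sets passed in nhx5-1/nhx6-1 and 1356 in nhx5-2, in either direction. Between both double knockouts all 9 were below 0 in nhx5-1/nhx6-1, with a median of -0.32, and none passed. Of the 9, 5 did not overlap, against 9.88% of all probe sets lower without overlap. These genes had 77.6% of their sum of squares within genotypes in common, so they are not 9 separate observations. On wild type replicate 2, the 9 nuclear genes also lay lower, with a median of -0.48 against the other two arrays. The phage-type polymerase gene RPOTMP and the 2 of 11 nuclear NDH genes measured, NDHL and NDHN, did not pass in any comparison. No gene of the lists of polymerase-associated proteins and of plastid RNA processing had a probe set of its own in the annotation. Of the 16 mitochondrion-encoded genes, 6 passed as higher in nhx5-1/nhx6-1 and 2 in nhx5-2/nhx6-2, against 5.13% and 4.27% of all probe sets. Among markers of other cells and states, the guard cell gene GC1 was lower, with a difference of -0.98 in nhx5-2/nhx6-2 and of -0.46 in nhx5-1/nhx6-1, with limma adjusted p values of 0.000157 and 0.0169, and FAMA did not pass. Only 2 of 4 guard cell markers and 1 of 4 senescence markers on the lists had a probe set annotated to that gene alone. The senescence gene SAG29 was higher by 0.79 in nhx5-2/nhx6-2, with a limma adjusted p of 0.00364. In nhx5-1/nhx6-1 its difference of 0.33 did not pass, with a limma adjusted p of 0.177. The part of these shifts in the chloroplast values was not tested.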

How the data were processed

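The authors deposited 1 table with a score for each of 22810 probe sets on 15 arrays, log-like and averaging about 0 over each array. The sources used here do not state its background correction, normalization or log base. Biotin-labelled RNA was made from 6 µg of total RNA, per the labels' protocols. The score was used as deposited, and the plan's assumption of linear or log2 intensities was dropped. After 64 control probe sets were set aside, 22746 were tested. Names came from the array's annotation and the gene table of assembly TAIR10.1. No low-signal filter was applied. The number of arrays limits the precision.

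A model holding the mean of each genotype was fitted over the 15 arrays with limma 3.58.1 in R 4.3.3, with Benjamini-Hochberg adjustment over 22746 probe sets and a threshold of 0.05, and checked on simulated data. The spike-in yardstick takes 9 spike-in probe sets at assumed nominal amounts of 1.5, 5, 25 and 100 pM, and its slope had an SD of 0.0281 over the arrays. Dim genes need not follow it. The members, the gene lists and the tests were chosen with earlier results of these data known. Named genes are those called in a comparison, psbA, psbD, psaA, rpoC1 and ndhG, the extremes of each group by mean, the 5 widest and 5 narrowest in spread, and listed genes that passed. The genes rpl14, rpl16, atpB, rpoC2 and rps18, and a few others given as examples, fall outside this rule and were chosen after their values were seen. Alternatives were other scalings, a replicate block, array weights, a filter, a covariate and arrays left out. A further 8 probe sets that list a pair of chloroplast genes were kept out of the members.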

Additional observations from a re-analysis of the deposited data

Results flagged for a closer look

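The value of psbA differed between the double knockout lines, which carry different alleles of both genes. It was 1.06 units higher in nhx5-1/nhx6-1 than in nhx5-2/nhx6-2, with a limma adjusted p of 0.0372 in the direct comparison. That call was lost with several single arrays left out, with the replicate block, with the covariate and with only the genotypes compared. Against the same wild type arrays, psbA stood at 1.02 units in nhx5-1/nhx6-1 and at -0.04 units in nhx5-2/nhx6-2. The 3 arrays of nhx5-1/nhx6-1 also had the 3 highest 3′ minus 5′ control signals. Signal and genotype therefore cannot be told apart in this comparison, and the covariate fit cannot separate them.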

How the results depend on the processing

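The count of members called in nhx5-1/nhx6-1 against wild type was 8 in the main analysis. It was 5 with a replicate block (4.58% of all probe sets called higher), 4 with arrays at the same median (2.77%) and 4 without both arrays of low SD (9.63%). It was 1 with only the genotypes compared (1.68%), 0 with all arrays shifted by the chloroplast position (0.185%) and 0 with the 3′ minus 5′ covariate (0.0264%). With array weights it was 16 (16.2%), and with single arrays left out it was between 2 and 15. That shift of all arrays moved the median of all probe sets by -0.29 units in this comparison, so it widens the spread of the probe sets that did not move. The count for nhx5-1/nhx6-1 against nhx5-2/nhx6-2 was 1. It became 0 with the replicate block, with the shift of all arrays, with the covariate and with only the genotypes compared. In these fits at most 0.0352% of all probe sets were called higher. The count was 26 with array weights (7.21% of all probe sets higher), and between 0 and 7 with single arrays left out. Without both arrays of low SD it was still 1 (1.11%), but the gene called was psbT and not psbA. For nhx5-2/nhx6-2 against wild type it was 0, and became 10 lower with array weights, a share of the 69 near the 15.8% of all probe sets called lower. It was 1 with the members alone shifted, against 4.28% of all probe sets called higher, and between 0 and 4 with single arrays left out. The F test called 1 member, psbA. With psbA among them, it called 2 after quantile normalization (18.1% of all probe sets), 23 with array weights (39.9%) and 4 with the members alone shifted (12.4%). With single arrays left out it called between 1 and 6, psbA each time. The call of psbA was lost with the covariate, where psaJ, rpl33 and rps18 were called (2.68%). It was also lost with the shift of all arrays, where psaJ alone was called (1.93%), and without both arrays of low SD, where psbT alone was called (19.7%). For nhx5-2 and nhx6-2 no alternative gave a call. With the covariate the median difference was -0.29 in nhx5-2, -0.06 in nhx6-2, 0.02 in nhx5-2/nhx6-2, 0.75 in nhx5-1/nhx6-1 and 0.69 between both double knockouts, so it turned sign in the first 3. With single arrays left out the medians ran from -0.11 to 0.25 in nhx5-2, from -0.05 to 0.33 in nhx6-2, from -0.31 to 0.02 in nhx5-2/nhx6-2, from 0.03 to 0.44 in nhx5-1/nhx6-1 and from 0.20 to 0.54 between both double knockouts. The causes were not tested. None of the 9 called differences turned its direction. Uncalled differences near 0 did in nhx5-1/nhx6-1: without wild type replicate 2 rpoA went from 0.08 to -0.27 and atpE from 0.04 to -0.36, and without wild type replicate 3 rpl32 went from -0.05 to 0.10 and ndhI from -0.08 to 0.13. Arrays with the same replicate number did not deviate together (correlations from -0.36 to 0.35, 6 of 30 above 0.1), so the block rests on a number only. Array weights were estimated gene by gene, because the default method did not converge. The plan to take another probe set per gene gave the same values, as each gene had 1. Precision is limited by 3 arrays per genotype and by 12 members that did not exceed the highest control without a target on every array.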

Other observations

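A further 8 probe sets listed a pair of chloroplast genes each and were in no comparison above. On wild type replicate 2 they differed from the mean of the other two wild type arrays by a median of -0.86 units, with 7 of 8 below 0. Their array position was -0.71 on that array, -0.62 on nhx5-2/nhx6-2 replicate 3, and 0.19, -0.26 and 0.53 on the arrays of nhx5-1/nhx6-1.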
